A study of Homo sapiens with 32 samples.

Results

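The RBM genes are named for the RNA-binding motif that their proteins share. They were taken here as every human gene whose symbol is RBM followed by a digit and that had a transcript in the deposited tables, with 1 gene of that pattern left out by the rule. The rule gave 37 genes of the 18854 with a matched transcript. A further 30 RBM symbols in RefSeq, which are antisense transcripts, pseudogenes, divergent transcripts and readthroughs, had no matched transcript. The readthrough RBM14-RBM4 had one and is among the 37.

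RBM proteins bind RNA through RNA recognition motifs, but they do not form a single pathway. Some sit in the spliceosome or steer the choice of exons, and others work in the exon junction complex, in the methylation of adenosine in RNA, in the delivery of RNA to the nuclear exosome, in ribosome assembly or in the stability of mRNA. CDK11 is a cyclin-dependent kinase that acts in transcription and in the activation of the spliceosome, and OTS964 is a small-molecule inhibitor of it. An RBM gene is therefore both a possible part of the machinery that CDK11 acts on and an mRNA that this machinery has to make.

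The data are 32 RNA-seq libraries from 4 established human cancer lines. A375 is a melanoma line, Cal51 a breast carcinoma line, MDA-MB-231 a triple-negative breast cancer line and DLD1 a line of colorectal adenocarcinoma. Each line was sequenced as wild-type cells, which the labels describe as sensitive to CDK11 inhibition, and as cells with the mutation G579S, described as resistant. All cells were grown in DMEM with serum and received DMSO or OTS964 at 100 nM for 6 h, with 2 libraries in each of 16 groups. The labels give no gene for G579S, do not say whether the G579S cells are single clones, and do not state that a group's 2 libraries were cultured apart, so the p-values rest on the spread among these samples, and that spread may be technical.

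A library held between 16091376 and 29742687 estimated reads, of which between 85.62% and 89.37% fell on matched genes. The libraries labelled DLD1 wild-type carried a melanocyte marker at high level and the markers of their label only at low levels. Under DMSO, the melanocyte factor SOX10 was at 716 ± 29.8 CPM (SD, n = 2; CPM are counts scaled to the TMM library size) in them, against 592 ± 12.6 in wild-type A375 and 1.29 ± 0.491 in DLD1 G579S. The intestinal factor CDX2 was at 3.25 ± 0.576 CPM in them and at 96.3 ± 0.271 in DLD1 G579S. Over 7 colorectal markers, the summed level ran from 33.9 to 51.0 CPM in the former and from 1365 to 1367 in the latter, with 1 marker at 0 in both, and over 7 melanocyte markers it ran from 724 to 769 and from 26.7 to 28.8. These libraries are called "labelled DLD1 wild-type" throughout, and the changes across wild-type lines are also given without them. CDK11B was at 638 ± 47.6 CPM in MDA-MB-231 G579S cells under DMSO and at 59.1 ± 3.88 in the wild-type cells of that line. CDK11B and CDK11A are near-identical copies, so reads between them are uncertain.

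2 sets of sequences bear on the results. RBM4 and RBM4B are neighbouring paralogs on chromosome 11 that regulate alternative splicing. Over whole transcripts, 7.5% of the 31-base words of RBM4B also occur in RBM4, and reads from such stretches may have been divided between them. The first 120 bases of their coding sequences (1092 and 1077 bases long, GENCODE 29 on GRCh38) are shown because they are such a stretch. They differ at 1 base, in capitals, which is G27T counted from the A of the start codon with RBM4 first.
RBM4, coding bases 1 to 120, chr11:66639712-66639831 (+ strand): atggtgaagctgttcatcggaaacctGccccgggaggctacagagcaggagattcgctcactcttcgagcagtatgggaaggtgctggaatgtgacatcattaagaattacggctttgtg
RBM4B, coding bases 1 to 120, chr11:66676960-66677079 (- strand): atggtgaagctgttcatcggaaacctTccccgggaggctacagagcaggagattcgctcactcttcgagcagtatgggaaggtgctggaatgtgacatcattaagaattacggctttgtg
The other set is the 250 bases before the start of 4 members that moved in different ways (RefSeq, GRCh38.p14, in the direction of the gene). RBM25 and RBM22 fell in wild-type cells and rose in DLD1 G579S cells, RBM5 fell in both, and RBM15B rose in both. Capitals mark CCAAT or its reverse complement ATTGG.
RBM25, chr14:73058284-73058533 (+ strand): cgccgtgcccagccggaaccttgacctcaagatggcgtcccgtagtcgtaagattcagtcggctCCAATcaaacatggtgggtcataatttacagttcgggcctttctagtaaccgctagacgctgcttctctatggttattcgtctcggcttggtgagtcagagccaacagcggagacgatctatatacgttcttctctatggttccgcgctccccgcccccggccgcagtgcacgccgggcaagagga
RBM22, chr5:150701063-150701312 (- strand): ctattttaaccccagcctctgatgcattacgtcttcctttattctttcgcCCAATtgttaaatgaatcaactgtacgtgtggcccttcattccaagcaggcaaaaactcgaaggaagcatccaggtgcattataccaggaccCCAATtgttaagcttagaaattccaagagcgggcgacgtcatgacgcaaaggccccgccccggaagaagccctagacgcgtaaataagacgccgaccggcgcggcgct
RBM5, chr3:50088669-50088918 (+ strand): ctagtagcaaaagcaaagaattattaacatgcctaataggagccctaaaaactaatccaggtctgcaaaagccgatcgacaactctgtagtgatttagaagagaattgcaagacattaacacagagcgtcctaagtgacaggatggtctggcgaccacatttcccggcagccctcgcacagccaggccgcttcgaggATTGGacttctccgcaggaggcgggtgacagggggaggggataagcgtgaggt
RBM15B, chr3:51391035-51391284 (+ strand): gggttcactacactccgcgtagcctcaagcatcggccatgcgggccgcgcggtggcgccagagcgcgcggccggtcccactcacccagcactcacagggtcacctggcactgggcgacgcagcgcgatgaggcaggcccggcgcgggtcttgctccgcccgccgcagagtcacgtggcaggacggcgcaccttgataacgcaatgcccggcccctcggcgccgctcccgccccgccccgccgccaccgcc

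The length-normalized levels of the RBM genes in wild-type DMSO libraries spanned from absent to abundant. RBM4 had the highest median over these 8 libraries, 120 TPM, a unit scaled by transcript length and depth, with a range from 97.7 to 179. RBM42, a protein of the spliceosomal tri-snRNP, followed at 91.0 TPM (61.1 to 154), then RBM3 at 90.3 (31.4 to 278) and RBM8A at 82.2 (60.4 to 118). The ranges of these 4 genes overlapped, so their order is not beyond the spread between lines. RBM10, RBM22, RBM25, RBM23 and RBM17, all splicing factors, had medians between 50.5 and 64.1 TPM. At the other end, RBM43, RBM24, RBM46, RBM20, RBM44 and RBM11 had medians of at most 1.20 TPM. RBM11, a splicing regulator known from brain and testis, had reads in 4 of 32 libraries and was the only member that passed no filter on low counts. RBM24, a muscle splicing and stability factor, was largely a gene of the MDA-MB-231 libraries, at 11.1 and 9.98 CPM under DMSO in the wild-type and at most 1.61 in wild-type DMSO libraries of the other labels. RBM47, an RNA-binding cofactor of cytidine deamination, was at 53.2 and 56.3 CPM in wild-type Cal51, at 28.1 and 26.8 in MDA-MB-231, and between 8.18 and 12.5 in A375 and in the libraries labelled DLD1 wild-type. In DLD1 G579S it was at 48.9 and 34.9.

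The first comparison asked how the RBM genes respond to OTS964 in wild-type cells. Most of those that changed fell. Of 36 members tested across the lines, 18 fell and 7 rose at an adjusted p under 0.05 (edgeR's quasi-likelihood test, Benjamini-Hochberg over all genes), where 32% of all tested genes fell and 29.9% rose. At least 2-fold, 13 members fell and 2 rose, against 22.6% and 11.8% of all genes. The median log2 change was -0.67 over the members and -0.06 over all genes. Without the libraries labelled DLD1 wild-type, 17 members fell and 6 rose. Over all 13516 genes then tested, 3928 fell and 3662 rose. In bulk RNA, fewer cells of a kind and less RNA per cell cannot be told apart, and the libraries of OTS964-treated wild-type cells were scaled by TMM factors of 0.768 ± 0.051, against 1.121 ± 0.026 in wild-type DMSO libraries (SD, n = 8). With scaling by library totals instead, the median of all genes moved from -0.065 to -0.654 and the higher share of all calls fell from 48.3% to 22.1%. Then 24 members were lower and 2, RBM15B and RBM15, were higher, beside 6801 and 1934 of all 13676 genes. Directions in the text are relative to the TMM centre, and the small rises of RBM4, RBM8A, RBM19 and RBM42 turn to log2 changes of -0.12, -0.061, -0.30 and -0.28 on library totals.

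**Figure D1:**
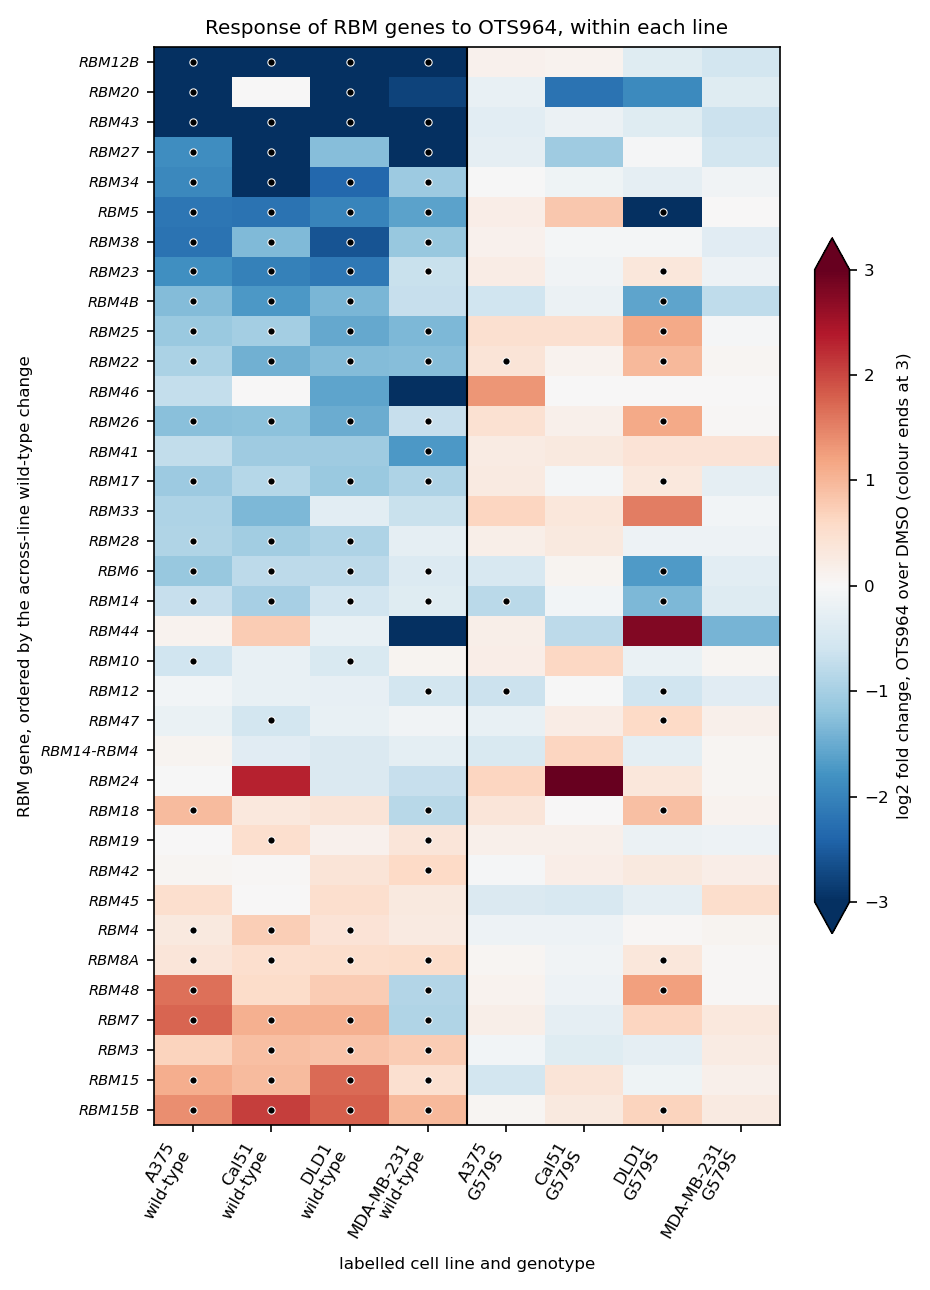
Log2 fold change of 36 RBM genes, OTS964 over DMSO, within each labelled line (columns) and gene (rows, ordered by the across-line wild-type change), with black dots where the adjusted p was under 0.05. The 4 wild-type columns are mostly blue from RBM12B to RBM14 and red at RBM15B, and among the G579S columns the dots lie mostly in DLD1.

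Among the splicing factors, RBM5 fell in every wild-type library. RBM5 is a nuclear regulator of exon choice that acts on apoptosis genes such as FAS. Under DMSO it was at 41.0 and 39.9 CPM in A375, 64.8 and 65.8 in Cal51, 51.8 and 48.5 in the libraries labelled DLD1 and 48.1 and 54.7 in MDA-MB-231. Under OTS964 it was at 9.00 and 9.12, 18.7 and 9.52, 12.4 and 12.8, and 19.1 and 14.8 in the same order. All 8 treated libraries lay below all 8 untreated ones. The log2 change was -1.94 ± 0.13 (SE, adjusted p = 1.52e-08). RBM6, its neighbour and paralog on chromosome 3, fell less, by 0.73 ± 0.08 on the log2 scale, from a median of 57.8 CPM (39.4 to 65.4) to 32.9 (23.7 to 40.1), and its groups overlapped. RBM10, the third of these paralogs, fell by 0.25 ± 0.09, with overlapping groups. That call was lost when the labelled DLD1 wild-type libraries were left out (adjusted p = 0.0541) and with DESeq2 size factors (0.101).

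RBM23 and RBM4B fell by more than 2-fold as well. RBM23, a nuclear splicing factor, went from a median of 79.2 CPM (65.8 to 136) under DMSO to 26.8 (18.1 to 44.3), with no overlap between the 16 libraries and a log2 change of -1.63 ± 0.15 (adjusted p = 3.24e-07). Its fall was smaller in MDA-MB-231, at -0.68, than in A375, at -1.84, and that difference passed its own test (adjusted p = 1.33e-05). RBM4B went from 18.1 CPM (8.07 to 21.1) to 6.59 (3.39 to 8.99), a log2 change of -1.23 ± 0.18 (adjusted p = 3.03e-05). Only the MDA-MB-231 DMSO libraries, at 8.07 and 8.15, reached down to the treated range. Its paralog RBM4 did not follow. RBM4 was at 99.4 CPM (74.2 to 130) under DMSO and at 126 (81.2 to 221) under OTS964, and its log2 change of 0.47 ± 0.08 (adjusted p = 1.56e-04) lost its sign on library totals, whereas that of RBM4B did not.

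RBM22, RBM25 and RBM17 fell in all 4 labels. RBM22 sits beside the catalytic RNA core of the activated spliceosome. It was at 76.7 CPM (61.9 to 90.0) under DMSO and at 31.0 (25.0 to 43.4) under OTS964, with no overlap and a log2 change of -1.19 ± 0.09 (adjusted p = 4.03e-08). RBM25, which binds the U1 particle and exonic enhancers, was at 127 and 118 CPM under DMSO in A375, 153 and 155 in Cal51, 108 and 130 in the libraries labelled DLD1 and 182 and 185 in MDA-MB-231. With OTS964 it was at 53.4 and 60.2, 81.0 and 70.3, 20.8 and 61.2, and 59.7 and 85.6. Again no treated library reached an untreated one, and the log2 change was -1.20 ± 0.17 (adjusted p = 2.86e-05). The lowest value, 20.8 CPM, belonged to replicate 1 labelled DLD1 wild-type. RBM17, a U2-associated factor of splice site choice, fell by 0.95 ± 0.07 on the log2 scale, from 94.0 (65.1 to 126) to 48.8 (31.8 to 73.3) CPM, with overlap between lines but not within one. RBM42 had a small log2 rise of 0.32 ± 0.08, which changed sign on library totals and was not called (adjusted p = 0.0501) when the labelled DLD1 wild-type libraries were left out. RBM20, a cardiac splicing factor, was at or below 3.66 CPM in each wild-type library. Its log2 change of -3.77 ± 0.72 rests on a fall from a median of 0.989 CPM to 0.0415, with 4 of 8 treated libraries at 0.

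The other proteins of the activated spliceosome that were listed beside RBM22 split both ways. Of 9 tested, RBM22 included, 4 rose and 3 fell (median -0.10), beside 29.9% and 32% of all genes. SNW1 fell with a log2 change of -1.23 ± 0.35, and BUD31 and PRPF19 rose with changes of 0.95 ± 0.11 and 0.65 ± 0.06. All 3 proteins belong to the complexes around the splicing active site.

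**Figure D2:**
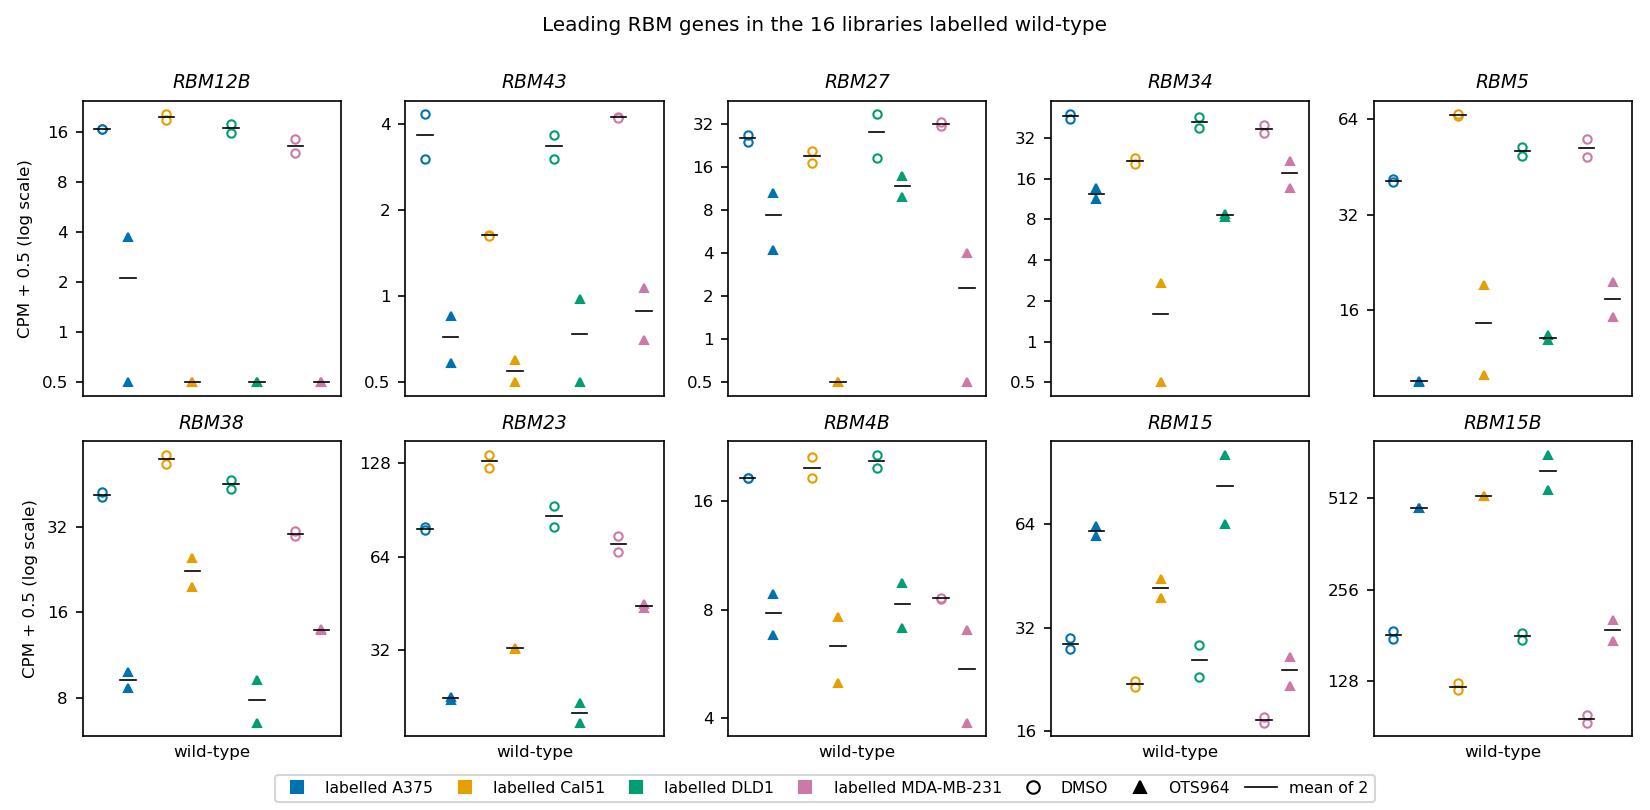
CPM plus 0.5 on a log scale in the 16 libraries labelled wild-type, for the 8 RBM genes with the largest falls and the 2 with the largest rises of at least 2-fold and of 1 sign in all 4 labels. Open circles are DMSO, filled triangles OTS964, and bars the mean of 2 libraries. RBM12B lies at the bottom of its axis in 7 of 8 treated libraries, and both members of the m6A writer, RBM15 and RBM15B, lie above their controls in each line.

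RBM15B and RBM15 had the largest rises of the family. Both are adaptors that bring the m6A writer, which methylates adenosine in mRNA, to its targets. RBM15B under DMSO was at 175 and 187 CPM in A375, 126 and 119 in Cal51, 184 and 175 in the libraries labelled DLD1 and 93.0 and 99.1 in MDA-MB-231. With OTS964 it reached 474 and 474, 519 and 518, 711 and 543, and 204 and 174. Within each line the treated libraries lay above the untreated ones, although the MDA-MB-231 treated libraries did not exceed the A375 controls. The log2 change was 1.61 ± 0.15 (adjusted p = 3.76e-07). It was 1.50 with the libraries labelled DLD1 wild-type left out. RBM15 went from 22.2 CPM (16.4 to 29.3) to 51.0 (21.2 to 101), a log2 change of 1.11 ± 0.18 (adjusted p = 8.24e-05), and 0.86 without them. In MDA-MB-231 its values were 16.4 and 17.1 against 25.9 and 21.2 CPM, a log2 change of 0.49 that turned to -0.02 on library totals.

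Of 11 listed writer, eraser and reader genes, 4 rose and 3 fell (median 0.39), beside 29.9% and 32% of all genes. The 4 rises were those of RBM15 and RBM15B themselves and of the demethylases ALKBH5 and FTO, with log2 changes of 0.69 ± 0.16 and 0.46 ± 0.12. The catalytic partner METTL14 and the nuclear reader YTHDC1 fell, with changes of -1.67 ± 0.22 and -1.80 ± 0.27. VIRMA, a scaffold of the writer, fell too, with a change of -0.44 ± 0.10 (adjusted p = 0.00103). METTL3, the catalytic subunit, had a change of -0.43 ± 0.23 that did not pass (adjusted p = 0.113). The writer subunits WTAP and CBLL1 did not pass either, with changes of 0.54 ± 0.36 and 0.39 ± 0.64 (adjusted p = 0.203 and 0.617).

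RBM8A, the core subunit of the exon junction complex also called Y14, rose a little in each line. It went from a median of 240 CPM (163 to 360) to 317 (240 to 505), a log2 change of 0.53 ± 0.05 (adjusted p = 3.97e-07). Its 2 libraries per condition did not overlap in any line, but the sign did not hold on library totals. Of 12 listed genes of this complex and of nonsense-mediated decay, RBM8A included, 4 rose and 7 fell (median -0.35). The shares of all genes were 29.9% and 32%. MAGOH, the partner that RBM8A binds, rose by 0.70 ± 0.09, while UPF3B, PYM1 and UPF2 had changes of -1.99 ± 0.11, -1.67 ± 0.25 and -1.37 ± 0.23. CASC3, UPF1, ACIN1 and RNPS1 fell too, with changes of -0.89, -0.76, -0.40 and -0.31. MAGOHB and EIF4A3 also rose, by 0.67 and 0.15. UPF3B and UPF2 link the complex to decay, and PYM1 takes it off translated mRNA.

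The RBM genes that deliver RNA to the nuclear exosome did not move as 1 group. RBM26 and RBM27 are paralogs that join the poly(A)-tail exosome targeting machinery. RBM26 fell from 86.1 CPM (37.8 to 103) to 35.3 (15.7 to 43.4), a log2 change of -1.12 ± 0.16 (adjusted p = 1.96e-05). RBM27 was at 23.7 and 26.5 CPM in A375, 20.5 and 16.8 in Cal51, 18.0 and 37.3 in the libraries labelled DLD1 and 30.6 and 32.9 in MDA-MB-231 under DMSO. With OTS964 it was at 10.1 and 3.73, 0 and 0, 9.47 and 13.4, and 3.56 and 0. Its across-line change was -3.09 ± 0.85 (adjusted p = 0.00576), a fitted value that depends on the libraries at 0. In Cal51 RBM27 was at least 65.3-fold lower, taking a floor of 3 counts per library. In GENCODE, 45.6% of the 31-base words of RBM27 also occur in the locus AC091959.3, so its reads may have been divided.

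RBM7, the RNA-binding subunit of the nuclear exosome targeting complex, went in opposite directions. It was at 39.3 and 41.0 CPM in A375 DMSO libraries and at 123 and 145 with OTS964, and at 29.3 and 26.6 against 62.7 and 54.8 in Cal51. In MDA-MB-231 it was at 36.9 and 32.6 against 16.0 and 21.1. In the libraries labelled DLD1 it was at 38.0 and 43.0 against 40.7 and 129, where the treated pair stood apart. The across-line change of 0.84 ± 0.36 did not pass (adjusted p = 0.0547). It passed with DESeq2 (adjusted p = 0.0102), and without replicate 1 of OTS964-treated MDA-MB-231 it was 1.08 (adjusted p = 0.00972). Of the 13 listed exosome adaptors and cofactors, RBM7, RBM26 and RBM27 included, 3 rose and 6 fell (median -0.26). The shares of all genes were 29.9% and 32%. ZCCHC8, the scaffold that RBM7 binds, fell with a log2 change of -2.44, and ZC3H18 with one of -1.50. EXOSC3 and EXOSC10 fell too, with changes of -1.23 and -0.56, as did RBM26 and RBM27. The rises were those of NCBP1, SRRT and PABPN1, by 0.66, 0.59 and 0.51.

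Both RBM members of the minor spliceosome, which removes the rare U12-type introns, had few reads. RBM41 fell from a median of 8.89 CPM (6.08 to 13.8) to 4.27 (0.356 to 6.89), a log2 change of -1.09 ± 0.34 (adjusted p = 0.0130), and within single lines only MDA-MB-231 was called. The change in that line, -1.72, was -0.84 without treated replicate 1 and -4.12 without treated replicate 2. RBM48 was at 10.1 CPM (7.55 to 15.1) and 14.7 (2.85 to 33.5), with a change of 0.59 ± 0.34 that did not pass (adjusted p = 0.147). Of 13 listed genes of this machinery, RBM41 and RBM48 included, 2 rose and 6 fell (median -0.51), beside 29.9% and 32% of all genes. ZRSR2, which recognises the splice site of these introns, had a change of -1.63, PDCD7 one of -1.20 and SNRNP35 one of -1.18, and SNRNP25 rose by 1.15.

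The nucleolar members, which assist ribosome assembly, went apart from each other. RBM34 fell from 38.2 CPM (20.2 to 47.3) to 9.55 (0 to 21.2), a log2 change of -2.22 ± 0.44 (adjusted p = 4.71e-04). It was at 0 and 2.21 CPM in treated Cal51. Of its 31-base words 72.6% also occur in ARID4B, the gene beside it, so its count is uncertain. RBM28 fell by 0.73 ± 0.09, from 61.7 (42.3 to 77.3) to 36.6 (22.5 to 45.0) CPM. RBM19 had a rise of 0.30 ± 0.09 that changed sign on library totals. Of 9 nucleolar genes, RBM19, RBM28 and RBM34 included, 4 rose and 4 fell, beside 29.9% and 32% of all genes. FBL, NPM1 and NCL, major proteins of the nucleolus, rose by 1.01, 0.88 and 0.84. NOP56, a core protein of box C/D snoRNPs, and the helicase DDX21 fell, with changes of -0.71 ± 0.20 and -0.46 ± 0.14 (adjusted p = 0.00667 and 0.00906).

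Of the members that act on mRNA stability or translation, RBM38 and RBM43 fell and RBM3 rose. RBM38, a p53 target that stabilises CDKN1A mRNA, went from 42.3 CPM (29.0 to 56.8) to 11.4 (6.02 to 24.4) without overlap, a log2 change of -1.77 ± 0.17 (adjusted p = 4.86e-07). The fall was smaller in MDA-MB-231 than in A375, at -1.15 against -2.22 (adjusted p of the difference 0.00605). RBM43 had a median of 2.84 CPM (1.12 to 3.82) under DMSO and of 0.150 (0 to 0.565) under OTS964, also without overlap, and a change of -3.61 ± 0.55 (adjusted p = 4.57e-05). RBM3, a protein induced by cold that promotes translation, went from 227 CPM (84.0 to 667) to 397 (193 to 1274). The lowest of these controls was replicate 1 of the libraries labelled DLD1 wild-type, at 84.0 CPM beside 226 in replicate 2. Its change was 0.85 ± 0.17 (adjusted p = 6.26e-04), and 0.26 (adjusted p = 0.216) on library totals. CIRBP, the other cold-induced RNA-binding protein, had a change of 0.00 ± 0.15 across lines.

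RBM12B had the largest fall of all members. Its function is little known. Under DMSO it was at 16.1 and 16.0 CPM in A375, 19.9 and 18.2 in Cal51, 15.1 and 17.3 in the libraries labelled DLD1 and 11.5 and 13.9 in MDA-MB-231. With OTS964 it was at 3.24 and 0 in A375 and at 0 in all 6 other libraries. Against a floor of 3 counts per library it was at least 66.7-fold lower in Cal51, at least 60.2-fold lower in the libraries labelled DLD1 and at least 74.3-fold lower in MDA-MB-231. Its count rests on 1 matched transcript, and reads assigned to unmatched identifiers were not counted. The fitted log2 change of -6.55 ± 1.05 (adjusted p = 7.72e-05) depends on the libraries at 0. RBM12, its paralog, was at 182 CPM (145 to 207) and 148 (84.3 to 187), with a change of -0.23 ± 0.10 that did not pass (adjusted p = 0.0654). RBM14, a coactivator that is also found in paraspeckles, fell by 0.61 ± 0.08, from 147 (98.2 to 203) to 95.1 (69.8 to 123) CPM. RBM14-RBM4 had a change of -0.20 ± 0.16, with an interval from -0.51 to 0.11, and 96.7% of its 31-base words occur in other genes. RBM33, RBM45, RBM44, RBM46, RBM24, RBM18 and RBM47 did not pass across lines, with changes between -1.17 and 0.38.

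When the labelled DLD1 wild-type libraries were left out, RBM10 and RBM42 were the only members among the 25 called to lose the call. Of the falls of at least 2-fold, the log2 changes were then -5.99 for RBM12B, -3.97 for RBM27 (adjusted p = 0.00742), -3.72 for RBM20 (0.0156), -3.68 for RBM43, -2.23 for RBM34, -1.98 for RBM5, -1.55 for RBM38, -1.50 for RBM23, -1.23 for RBM4B, -1.21 for RBM22, -1.14 for RBM25 and RBM41 and -1.04 for RBM26. The smaller falls of RBM17, RBM6, RBM28 and RBM14 were at -0.94, -0.76, -0.72 and -0.67. RBM3, RBM8A, RBM4 and RBM19 rose by 0.80, 0.49, 0.45 and 0.30. RBM7, RBM48 and RBM12, not called before, had changes of 0.69, 0.47 and -0.26 and were again not called. The lists kept their counts of rises and falls apart from the exon junction complex, with 3 rises in place of 4, and the neighbours of RBM22, with 2 falls in place of 3.

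The lines were then taken 1 at a time. In wild-type A375 7 members rose and 17 fell, where 20.8% and 25% of all genes did. In Cal51 7 rose and 16 fell (25% and 27.8% of all genes), in the libraries labelled DLD1 6 rose and 16 fell (22.3% and 27.7%), and in MDA-MB-231 6 rose and 18 fell (24.1% and 22.4%). The falls of 12 members were called in each label, which are RBM5, RBM6, RBM12B, RBM14, RBM17, RBM22, RBM23, RBM25, RBM26, RBM34, RBM38 and RBM43. This is 12 of 36 beside 13.3% of all genes. RBM8A, RBM15 and RBM15B rose in each, 3 of 36 beside 13.6%. In MDA-MB-231 some of these calls rest on single libraries. Of 4 fits that each left out 1 library of that line, 4 lost the call of RBM6 (adjusted p = 0.0541 to 0.242), 3 that of RBM34 (0.0832 to 0.235), 3 that of RBM15 (0.125 to 0.288), 2 that of RBM14 (0.0541 and 0.067) and 2 that of RBM26. Without treated replicate 1, the change of RBM26 was -0.18 (adjusted p = 0.462).

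RBM7, RBM18 and RBM48 were called in both directions, 3 of 36 where 4.41% of all genes were. All 3 rose in A375, by 1.74, 0.94 and 1.64 on the log2 scale, and all 3 fell in MDA-MB-231, with changes of -0.91, -0.83 and -0.87. RBM18 was at 44.7 and 44.3 CPM in A375 controls and at 80.5 and 90.1 with OTS964, and at 30.1 and 32.0 against 13.8 and 21.2 in MDA-MB-231. RBM48 was at 10.5 and 9.01 against 27.4 and 33.5 in A375, and at 10.1 and 10.2 against 2.85 and 8.29 in MDA-MB-231. The difference between the 2 lines was tested directly. It was higher in A375 for 5 members and lower for 4, beside 6.81% and 11.8% of all genes. The differences of RBM7, RBM48 and RBM18 were 2.65 ± 0.43, 2.51 ± 0.47 and 1.77 ± 0.37 (adjusted p = 1.78e-04, 7.22e-04 and 0.00218). The 2 treated MDA-MB-231 libraries differed from each other by more than most pairs, and RBM12 stood at 84.3 and 115 CPM and RBM26 at 15.7 and 39.4 in them. Without replicate 1 of the treated pair, the MDA-MB-231 changes of RBM7, RBM48 and RBM18 were -0.72, -0.29 and -0.55 and none was called (adjusted p = 0.152, 0.462 and 0.189), and leaving out an MDA-MB-231 control library lost some of the 3 calls too. The differences from A375 still passed without that treated replicate, at 2.46, 1.93 and 1.49. Fits that left out 1 library of this line called between 2 and 6 members higher and between 11 and 17 lower in it.

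In G579S cells fewer RBM genes were called across lines than in wild-type cells. Of 35 members tested, 2 rose and 3 fell, beside 1.37% and 1.46% of all genes. By the same edgeR test 12 of the 35 had an unadjusted p under 0.05, beside 3132 of 13983 genes. RBM25 rose by 0.50 ± 0.12 (adjusted p = 0.0448) and RBM15B by 0.32 ± 0.07 (0.0335). RBM4B, RBM14 and RBM12 fell, with changes of -0.78 ± 0.18, -0.66 ± 0.14 and -0.41 ± 0.09 (adjusted p = 0.0405, 0.0259 and 0.0302). None of the 5 calls was kept without the libraries labelled DLD1, where their adjusted p ran from 0.146 to 0.260, and fits that left out 1 library called between 0 and 4 members in each direction. Without the libraries labelled DLD1 the 5 changes kept their sign. They were 0.30 for RBM25, 0.20 for RBM15B, -0.51 for RBM4B, -0.44 for RBM14 and -0.34 for RBM12. That fit called 12 genes higher and 23 lower of 13699. The other members had intervals that in part allow changes of moderate size, such as -1.61 to 0.63 for RBM5 and -0.85 to 0.49 for RBM12B.

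**Figure D3:**
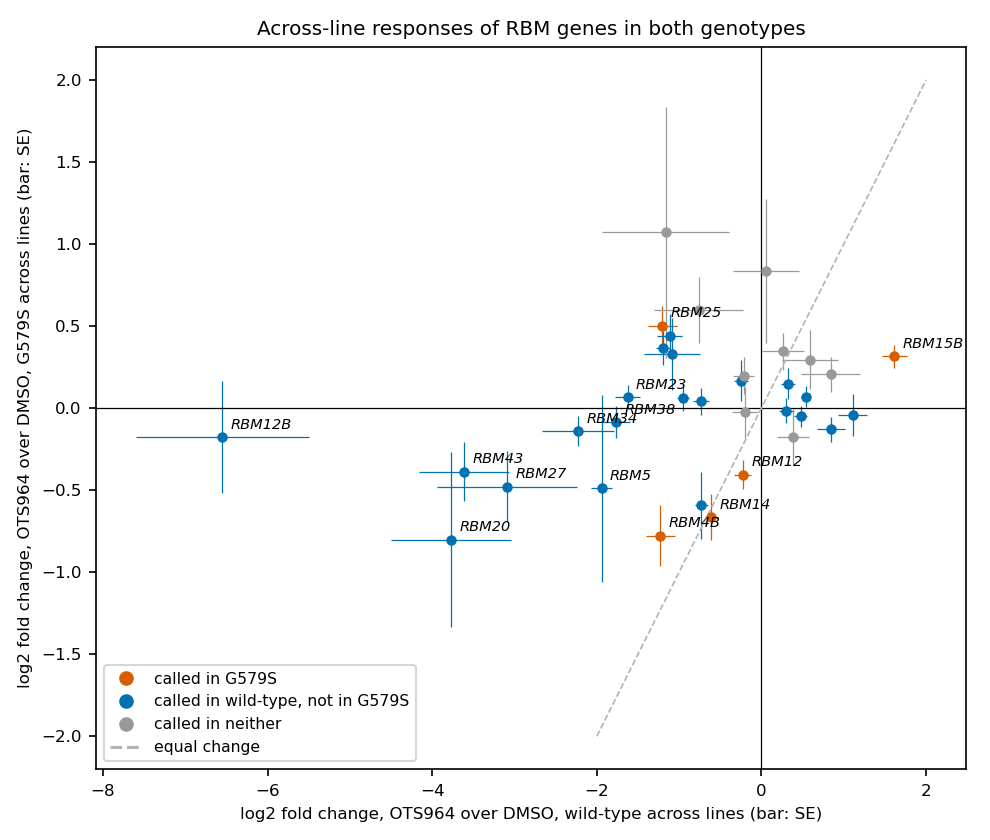
Across-line log2 fold change, OTS964 over DMSO, of the 35 RBM genes tested in both genotypes, wild-type on the x axis and G579S on the y axis, with bars of 1 SE and a dashed line of equal change. The wild-type values reach from -6.55 to 1.61 while most G579S values lie near 0, and RBM14 and RBM12 lie near the dashed line or below it.

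The calls in G579S cells came mostly from DLD1. In A375 1 member, RBM22, rose (0.384% of all genes) and 2, RBM14 and RBM12, fell (0.272%). In Cal51, where 0.14% of all genes rose and 0.251% fell, and in MDA-MB-231, with 0.224% and 0.0838%, no member was called by edgeR, although 6 members in Cal51 and 5 in MDA-MB-231 had an unadjusted p under 0.05. DESeq2 called 2 members higher in Cal51 and 1 lower in MDA-MB-231. In DLD1 10 members rose and 5 fell, beside 10.8% and 12.7% of all genes.

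RBM5 had the largest change in DLD1 G579S. It was at 55.3 and 50.4 CPM under DMSO and at 4.03 and 1.20 under OTS964, a log2 change of -4.30 ± 0.37 (adjusted p = 1.31e-07). In the other 3 lines with G579S it was between 37.4 and 69.1 CPM under DMSO and between 48.8 and 98.2 under OTS964. The test of DLD1 against the mean of the other lines gave -4.63 ± 0.41 (adjusted p = 5.31e-07). RBM6 went from 43.5 and 40.0 to 12.2 and 13.7 CPM, a change of -1.69 ± 0.17. RBM4B went from 18.6 and 19.3 to 6.95 and 5.78 (-1.57 ± 0.30), RBM14 from 133 and 126 to 49.7 and 52.6 (-1.34 ± 0.11), and RBM12 from 142 and 138 to 94.0 and 91.2 (-0.59 ± 0.13). RBM5, RBM6, RBM14 and RBM4B also fell in wild-type cells, 4 of 36 members with both calls, beside 6.81% of all genes.

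RBM25, RBM26, RBM22, RBM23 and RBM17 rose in DLD1 G579S and fell in wild-type cells, 5 of 36 members, beside 3.37% of all genes. RBM25 went from 166 and 164 CPM to 373 and 356, above each other library of the series, with a change of 1.14 ± 0.27 (adjusted p = 0.00402). RBM22 went from 88.1 and 90.1 to 182 and 165 (0.96 ± 0.08, adjusted p = 8.98e-08) and RBM26 from 71.8 and 66.9 to 162 and 144 (1.14 ± 0.25, adjusted p = 0.00217). Against the other G579S lines the differences of RBM22 and RBM26 passed, at 0.78 ± 0.09 and 0.92 ± 0.28, and that of RBM25, at 0.84, did not. Against those lines 5 members were higher and 4 lower, beside 4.67% and 7.4% of all genes. The rises of RBM23 and RBM17, of 0.33 and 0.32, were small. RBM48, RBM18, RBM15B, RBM47 and RBM8A also rose, by 1.22, 0.91, 0.68, 0.60 and 0.33. Leaving out 1 of the 4 DLD1 G579S libraries left between 4 and 6 members called higher, and library totals left 5.

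**Figure D4:**
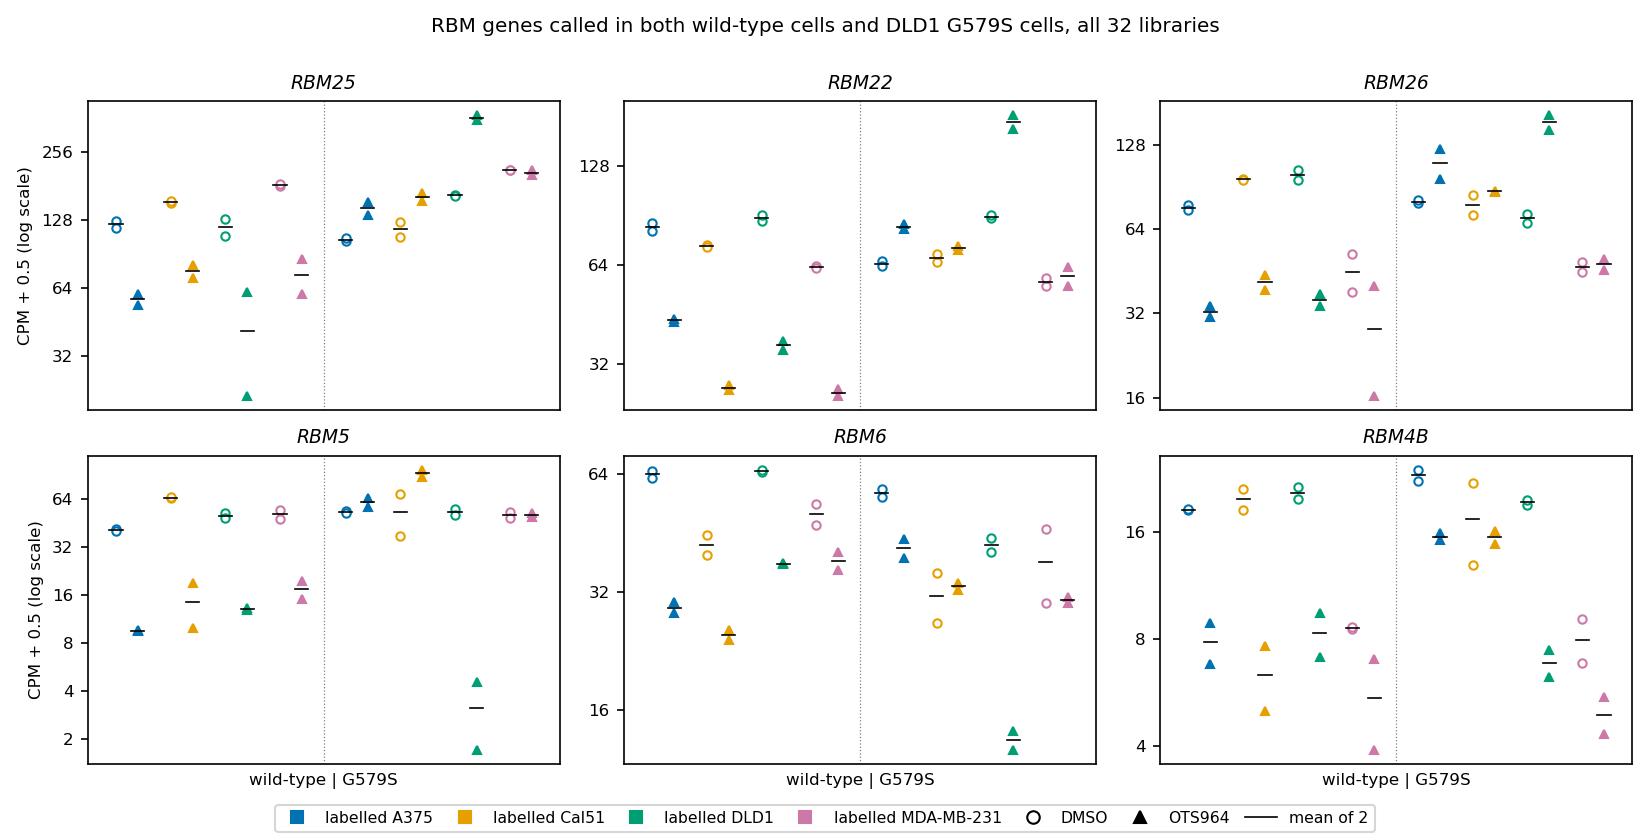
CPM plus 0.5 on a log scale in all 32 libraries for 6 RBM genes, wild-type left and G579S right of the dotted line, with open circles for DMSO, filled triangles for OTS964 and bars for the mean of 2. In DLD1 G579S, RBM25, RBM22 and RBM26 lie above their controls with OTS964 and RBM5, RBM6 and RBM4B below, while OTS964 lowered all 6 across wild-type lines.

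The difference between the responses, wild-type minus G579S, was tested in 1 fit of all libraries. It was negative for 17 members and positive for 5 of 36, beside 25.8% and 24.3% of all genes. The negative ones included RBM25 (-1.76 ± 0.22), RBM23 (-1.75 ± 0.19), RBM22 (-1.62 ± 0.13) and RBM26 (-1.62 ± 0.22), and the positive ones RBM15B (1.24 ± 0.15), RBM15 (1.09 ± 0.21), RBM3, RBM4 and RBM8A. On library totals those of RBM4 and RBM8A were 0.035 and -0.021 and were not called (adjusted p = 0.739 and 0.835). The test did not separate the genotypes for RBM14, with an interval from -0.33 to 0.33, nor for RBM12 (-0.11 to 0.36), RBM6 (-0.64 to 0.26) or RBM4B (-1.02 to 0.01). RBM5 passed narrowly at -1.49 ± 0.61 (adjusted p = 0.0432), and most fits that left out 1 library lost that call. With only the libraries labelled DLD1 wild-type left out, RBM5 (-1.49) and RBM10 (-0.42) lost the call (adjusted p = 0.0808 and 0.0557). RBM19, at 0.30, was then called (adjusted p = 0.049). Without the libraries labelled DLD1 in both genotypes the difference of RBM5 was -2.32 (adjusted p = 4.91e-07). Without those libraries, 17 differences were negative and 5 positive, beside 3464 and 3170 of 14049 genes. RBM6 (-0.54) and RBM4B (-0.73) then passed while RBM33 and RBM47 did not.

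Without drug, the G579S cells differed from wild-type cells in few RBM genes in A375 and MDA-MB-231, and in more in Cal51 and DLD1. In A375 RBM4 was higher by 0.38 ± 0.11 on the log2 scale and RBM22 lower by a change of -0.37 ± 0.08, 1 member in each direction beside 4.39% and 5.38% of all genes. The call of RBM4 was lost in each of 4 fits that left out 1 of the A375 DMSO libraries (adjusted p = 0.0882 to 0.186) and with counts scaled from TPM (0.0689), and that of RBM22 in 2 of these 4 (0.0655 and 0.0738). In MDA-MB-231 RBM15B was higher by 0.44 ± 0.10 and RBM8A lower at -0.46 ± 0.09, again 1 each (2.74% and 4.55%). In Cal51 no member was higher, by edgeR or by DESeq2, and 5 were lower (10.3% and 6.74%, with 11 members at an unadjusted p under 0.05), which were RBM15 (-0.87 ± 0.20), RBM12 (-0.48 ± 0.13), RBM14 (-0.45 ± 0.11), RBM28 (-0.35 ± 0.12) and RBM8A (-0.31 ± 0.09). Its 2 G579S DMSO libraries differed most of all pairs, with RBM10 at 89.6 and 50.5 CPM and RBM15 at 14.5 and 8.89, and leaving out 1 library at a time gave between 1 and 7 lower members. In DLD1 4 members were higher and 8 lower (22.7% and 26.4%), a contrast of libraries with different lineage markers, as given above.

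Transcript mix was tested because the title of the series names intron retention. The deposited tables list named transcripts, so a change of mix here concerns these isoforms. Whether it involves a retained intron was not tested. Of 18 members with at least 2 tested transcripts, RBM15 and RBM4B changed in wild-type cells (edgeR's diffSpliceDGE with Simes, adjusted p = 0.00592 and 0.0352), beside 390 of 6401 genes. RBM15 has 2 curated transcripts of 3320 and 3431 bases. The shorter one held 55.6% and 60.7% of the gene's reads in A375 controls, 53.4% and 54.3% in Cal51, 26.5% and 34.3% in the libraries labelled DLD1 and 79.3% and 61.6% in MDA-MB-231. With OTS964 it held between 92.8% and 100% in all 8 libraries. The untreated and treated shares did not overlap.

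RBM4B has transcripts of 1167 and 1844 bases. The shorter one held between 0% and 17.0% of the reads in wild-type DMSO libraries and between 51.0% and 79.1% in OTS964 libraries. Relative to the whole gene, the shorter transcript had a log2 change of 2.39 and the longer one of -1.0. For RBM15 it was the longer transcript that moved most, at -3.31. In G579S cells 0 of 18 members were called by the same test, and 7 of 6617 genes were. None of the 18 had an unadjusted p under 0.05 there. The lowest was 0.0813, of RBM7. The G579S shares of RBM15 were spread, for example 100% and 28.5% in treated Cal51. These shares are estimates between transcripts that share sequence. Without the libraries labelled DLD1 wild-type RBM15 was still called (adjusted p = 0.0445) and RBM4B was not (0.0771), and in fits that left out 1 library RBM15 was called each time.

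**Figure D5:**
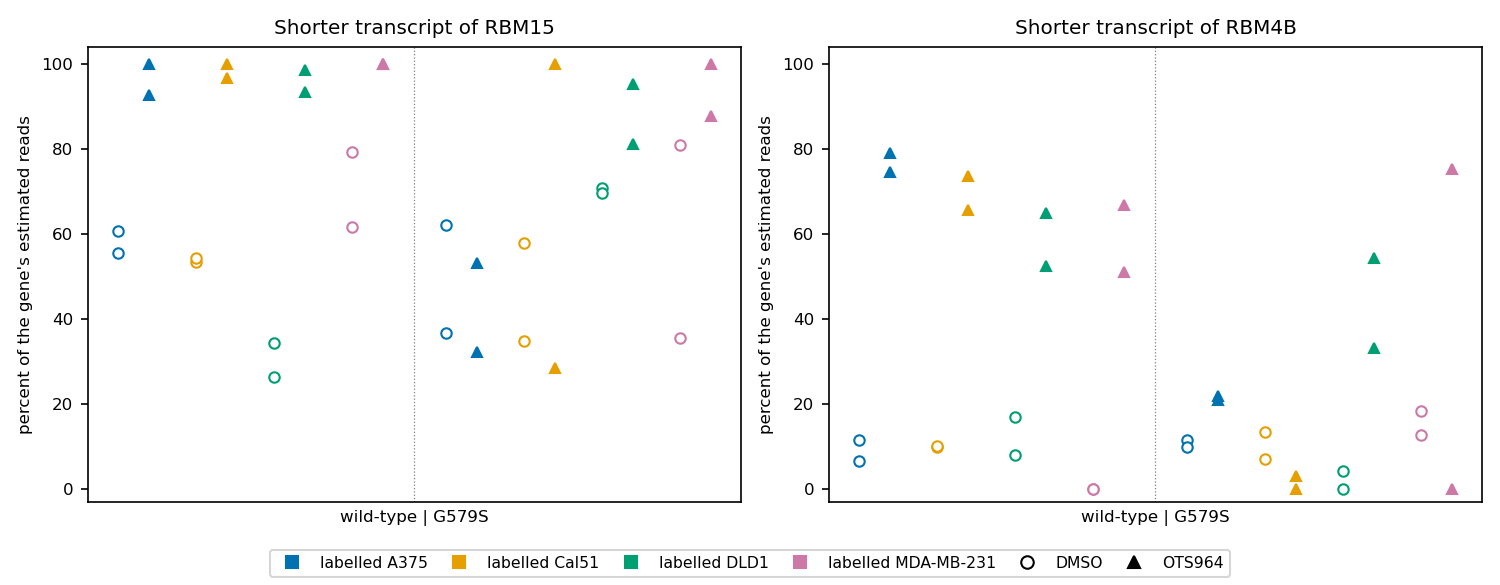
Share of the gene's estimated reads, in percent, on the shorter transcript of RBM15 (left) and of RBM4B (right) in all 32 libraries, wild-type left and G579S right of each dotted line, with open circles for DMSO and filled triangles for OTS964. In wild-type cells the triangles lie above the circles in each label, while in G579S they overlap in several.

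What the members share beyond their name was described from annotation. Members with longer gene bodies had lower log2 changes in wild-type cells. Spearman's rho between the change and the gene's span was -0.404 over 36 members and -0.232 over 13259 tested genes, and with the number of exons it was -0.32 and -0.137. The points share libraries and scaling, so these are descriptions. RBM15B, with the largest rise, has 1 exon and a span of 6.6 kb, RBM15 spans 8.2 kb and RBM3 4.6 kb. RBM25, RBM26 and RBM27, which fell, span 65.5, 94.7 and 85.5 kb, with 20 to 22 exons. The relation has exceptions on both sides. RBM12B, RBM43, RBM38, RBM4B and RBM22, which span 11.7, 13.9, 17.9, 12.9 and 10.3 kb, fell by at least 2-fold. RBM19 and RBM47, with 149.6 and 207.6 kb, were not called lower with TMM scaling.

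Of the 37 members 34 had a promoter in the RefSeq table, from 250 bases before to 50 after the start. CCAAT or ATTGG occurred in 20 of 34 (58.8%), against 36.5% of 11106 promoters of tested genes and 35.7% of all 27305. As shown above, the 250 bases before RBM22 hold 2 matches, those of RBM25 and RBM5 1 each and those of RBM15B none. These 4 do not stand for the others by direction, since the letters occurred in 6 of 7 members that rose across wild-type lines, in 10 of 16 that fell and in 4 of 10 that were not called. RBM15, RBM3, RBM4, RBM8A, RBM19 and RBM42, which rose, hold them, and RBM34, RBM26, RBM17 and RBM28, which fell, do not. The GC box, GGGCGG or CCGCCC, occurred in 61.8% of members' promoters and in 69.4% of tested genes', and the ETS core CCGGAAG or CTTCCGG in 23.5% and 18.4%. The cAMP response element TGACGTCA occurred in 3 members, RBM12, RBM18 and RBM42 (8.8% against 3.2%), and the E-box CACGTG in 3, RBM15, RBM15B and RBM19 (8.8% against 10.0%). RBM14 and its readthrough share 1 start and are not independent here. A match describes letters in these windows only.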

How the data were processed

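The authors deposited 1 table per library with an estimated count of reads and a TPM value for each transcript, per the file headers. These estimated counts are not normalized and the TPM values are scaled for transcript length and depth, as deposited, and the quantifier's name was not given in the sources used here. The submitters' processing notes name the mouse builds GRCm38 and mm10 although the transcripts are human. Of 87398 transcript identifiers 42543 matched a RefSeq gene (GRCh38.p14 names), 99.0% of the curated coding ones, 20.3% of the predicted coding ones and 0 of 19749 numbered ones. Rounded estimated counts were summed to 18854 genes. Deposited TPM values were summed the same way for levels between genes.

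Tests used edgeR 4.0.16 (quasi-likelihood F test, TMM scaling, its default low-count filter by group) in R 4.3.3, with Benjamini-Hochberg adjustment over all genes tested and a threshold of 0.05. Responses across lines had the line as a term, and single lines came from 1 fit of 16 groups, with 2 libraries each. Intervals are 95%, CPM values use TMM library sizes, and ± after a log2 change is the SE. Genes changed by known folds in simulated counts were used to test the scripts. No 2 libraries of a group were equal within sampling noise, and both were kept, which does not show separate cultures.

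Members were named by rule: the falls and rises of at least 2-fold that had 1 sign in every line, the 8 largest falls first, and otherwise members by role. The members and lists were chosen with earlier results of these data known. Alternatives were scaling by library totals, DESeq2 1.42.0 size factors and test, no filter, counts scaled from TPM, the replicate number as a block, each library left out, the libraries labelled DLD1 wild-type left out and, added after seeing the data, all libraries labelled DLD1 left out. Same-numbered libraries had correlations of deviations between -0.055 and 0.102, so the numbers were not taken as pairs.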

Additional observations from a re-analysis of the deposited data

Results flagged for a closer look

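For 22 RBM genes the response to OTS964 differed between wild-type and G579S cells, tested as the interaction of genotype and treatment over all libraries by edgeR's quasi-likelihood test. These are 22 of 36 members tested, beside 7171 of 14317 genes. Values are wild-type minus G579S on the log2 scale.

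Among splicing factors the difference was -1.76 for RBM25, -1.75 for RBM23, -1.62 for RBM22, -1.49 for RBM5, -1.07 for RBM17, -0.47 for RBM10 and -3.04 for RBM20, whose level was low, and it was 0.47 for RBM4. The exosome adaptors RBM27 and RBM26 were at -2.56 and -1.62. The nucleolar genes RBM34 and RBM28 were at -2.13 and -0.83, and RBM41 of the minor spliceosome at -1.48.

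RBM12B was at -5.98, a fitted value that depends on libraries with 0 reads. RBM43, RBM38, RBM33 and RBM47 were at -3.27, -1.73, -1.41 and -0.46. In the other direction, RBM15B and RBM15 of the m6A writer were at 1.24 and 1.09, the cold-induced RBM3 at 0.92 and the exon junction subunit RBM8A at 0.41. The largest adjusted p was 0.047, of RBM33, followed by 0.043, of RBM5. On library totals the value of RBM8A turned to -0.021 and that of RBM4 to 0.035 (adjusted p = 0.739), and neither was called. Without the libraries labelled DLD1 wild-type, RBM5 and RBM10 were not called (adjusted p = 0.0808 and 0.0557).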

How the results depend on the processing

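Over 8470 pairs of a member's contrast and an alternative, 7943 kept their direction and side of the threshold, 377 lost a call, 132 gained one and 18 changed sign. Most sign changes came with scaling by library totals, which also left 2 members called higher in wild-type cells across lines, 0 in G579S cells and 3 in the difference of responses. It left 4 higher in wild-type A375, 1 in Cal51, 2 in the libraries labelled DLD1 wild-type, 1 in MDA-MB-231 and 5 in DLD1 G579S. Over all genes this scaling left 1934 higher across wild-type lines, 99 in G579S cells, 1804 in the difference and 527 in DLD1 G579S. On library totals the log2 changes across wild-type lines were -0.30 for RBM19, -0.12 for RBM4, -0.28 for RBM42 and -0.061 for RBM8A, and the difference of responses of RBM8A was -0.021. In A375 they were -0.44 for RBM19, -0.14 for RBM4 and -0.071 for RBM8A. In Cal51 they were -0.20 for RBM19, -0.66 for RBM42 and -0.20 for RBM8A. In the libraries labelled DLD1 they were -0.41 for RBM19, -0.13 for RBM4 and -0.022 for RBM8A, and in MDA-MB-231 -0.020 for RBM15, -0.15 for RBM19 and -0.25 for RBM4. The remaining sign change was RBM3 in the DLD1 genotype contrast under DMSO, which ranged from -0.84 without replicate 1 to 0.59 without replicate 2 of the controls labelled wild-type.

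DESeq2 called 6 members higher in G579S cells across lines, and in the genotype contrasts 2 lower in A375, 9 in Cal51 and 2 in MDA-MB-231. Over all 13983 genes DESeq2 called 871 higher in G579S cells across lines, where edgeR called 191. The replicate block left 0 higher and 0 lower in G579S cells across lines, where over all genes it took the calls from 395 to 0 with 2371 genes at an unadjusted p under 0.05, and from 8456 to 7949 in wild-type cells. Without all libraries labelled DLD1, 0 were higher and 0 lower in G579S cells, and edgeR called 35 genes in all. With counts scaled from TPM, 0 were higher in the A375 genotype contrast. Transcript usage in wild-type cells was called for 6 members by the gene-level F test, 4 with the filter of 10 reads in 8 libraries and 1 when the libraries labelled DLD1 wild-type were left out. All-gene counts for these usage alternatives and for the genotype contrasts by DESeq2 are not given here.

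Leaving out 1 library gave ranges of called members. These were 0 to 4 higher and 0 to 4 lower in G579S cells across lines, 4 to 6 higher in DLD1 G579S, 2 to 6 higher and 11 to 17 lower in wild-type MDA-MB-231, and 1 to 3 for transcript usage. In the genotype contrasts they were 0 higher and 0 to 1 lower in A375, 0 to 1 higher and 1 to 7 lower in Cal51, 5 to 7 lower in DLD1 and 0 to 1 higher in MDA-MB-231. A group left with 1 library was assumed to vary like the others. The cause of these changes was not tested. Depth limits RBM11, RBM20, RBM24, RBM44 and RBM46, which had few reads.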
